A study of Mus musculus with 28 samples.

Results

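The cholesterol synthesis and SREBP2 program was followed as 29 genes of the 21935 in the count table: the SREBP2 gene and the genes that process its protein, enzymes from acetyl-CoA to cholesterol, and genes that move or store sterols. The genes were listed by name, and all 29 were found and passed the filter on low counts. Messenger RNA was measured by poly(A) RNA-seq in whole liver of 28 male B6.V-Lepob/JRj (Lep ob/ob) mice, which lack leptin and which were 5 weeks old on arrival. All mice, the vehicle group included, were kept on the AMLN diet, which supplies much fat together with fructose and cholesterol, for 14 weeks before dosing, to induce nonalcoholic steatohepatitis, and stayed on it while they were dosed once daily for 2 weeks with vehicle (10 mice), with OCA at 30 mg/kg (9 mice) or with INT-787 at 30 mg/kg (9 mice). OCA, obeticholic acid, is a semi-synthetic bile acid that activates the farnesoid X receptor (FXR), and INT-787 is OCA with an added hydroxyl group. Each sample was 1 mouse; 10 per group had been randomized, and all 3 groups share the genotype and the diet.

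Cholesterol is built in the cytosol and endoplasmic reticulum from acetyl-CoA by way of mevalonate, isoprenoid diphosphates, squalene and lanosterol. SREBP2, the transcription factor encoded by *Srebf2*, is held in the endoplasmic reticulum with its escort SCAP by the INSIG proteins when sterols are plentiful; when sterols fall, SCAP carries it to the Golgi, where the site-1 and site-2 proteases release the part that enters the nucleus and switches on most genes of the pathway, *Insig1* and *Srebf2* among them. The liver both makes cholesterol and converts it to bile acids, a conversion that FXR represses.

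SREBP2 binds sterol regulatory elements, often near a CCAAT box and an Sp1 box. RefSeq promoter windows (GRCm38.p6, 250 bases before to 50 after each transcription start) were found for 23 of the 29 genes. The element, searched as TCACNCCA on both strands, was in 3 of these 23 genes (13.04%) against 4.97% of 27025 genes with a window, and those 3 windows are shown with the match in capitals: *Srebf2* at chr15:82147019-82147318 (plus strand, match 162 bases before the start), *Hmgcs1* at chr13:119690101-119690400 (plus strand, 137 bases before) and *Msmo1* at chr8:64733529-64733828 (minus strand, 177 bases before).
Srebf2: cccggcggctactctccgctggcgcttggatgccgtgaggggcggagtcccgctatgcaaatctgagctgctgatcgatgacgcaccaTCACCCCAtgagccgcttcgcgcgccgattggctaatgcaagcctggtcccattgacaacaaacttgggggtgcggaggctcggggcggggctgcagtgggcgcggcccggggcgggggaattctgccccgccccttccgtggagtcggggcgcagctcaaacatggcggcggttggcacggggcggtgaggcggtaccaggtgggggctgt
Hmgcs1: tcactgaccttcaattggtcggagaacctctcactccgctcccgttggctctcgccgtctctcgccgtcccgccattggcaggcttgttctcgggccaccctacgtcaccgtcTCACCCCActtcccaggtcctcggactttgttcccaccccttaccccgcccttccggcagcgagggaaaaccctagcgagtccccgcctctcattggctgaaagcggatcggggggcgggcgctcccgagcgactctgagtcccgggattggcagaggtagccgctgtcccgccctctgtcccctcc
Msmo1: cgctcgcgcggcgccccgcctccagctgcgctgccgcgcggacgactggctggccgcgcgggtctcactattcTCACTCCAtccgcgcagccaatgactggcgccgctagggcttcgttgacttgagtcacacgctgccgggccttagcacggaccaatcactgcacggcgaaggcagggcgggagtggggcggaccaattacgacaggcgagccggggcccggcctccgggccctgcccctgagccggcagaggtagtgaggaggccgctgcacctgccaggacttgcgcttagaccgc
All 3 windows also held a CCAAT box, a pair found together in 1.90% of all genes. CCAAT alone was in 19 of the 23 genes (82.6%) against 41.1% of all genes, and the Sp1 letters GGGCGG were in 20 (87.0%) against 38.2%, with no overlap of letters required or barred between the motifs. A match describes the letters of the window only, and other spellings or positions of the element were not searched.

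Total counts ran from 9313260 to 22421506 in 27 mice, with a single low library of 1009593, vehicle replicate 6, in which 4 of the 29 genes had fewer than 10 counts. Levels are given as CPM, counts scaled by the library total after TMM adjustment, and log2 fold changes, standard errors (SE), 95% intervals and adjusted p come from edgeR's quasi-likelihood test over 12580 genes, with genes called at an adjusted p of at most 0.05. Vehicle replicate 5 stood apart: 61 genes that lie almost wholly under exons of the opposite strand summed to 1083.5 CPM in it and to 48.4 to 87.5 CPM in the other 27 mice. Exons of the opposite strand also overlap 9 of the 29 genes here, and in vehicle replicate 5 the levels of these 9 ranked from the 2nd highest (*Fdft1*, *Ggps1*) to the lowest (*Scap*, *Lss*, *Npc1*) of the 10 vehicle mice. Without this mouse no call among the 29 genes was lost. In vehicle liver, levels were compared per kilobase of exon. The highest were those of *Sc5d* (73.0 ± 5.47 CPM per kb, SD), *Ebp* (71.2 ± 12.9) and *Insig2* (64.5 ± 22.5), whose spreads overlapped. *Hmgcs1* (46.0 ± 7.25) and *Insig1* (26.8 ± 4.91) followed. The lowest were *Fdps* (1.02 ± 0.326) and *Idi1* (0.718 ± 0.275). Of the short stretches of exon sequence in *Fdps* and *Idi1*, 23.5% and 16.7% also occur in other genes. How reads from such stretches were counted is not given, and their part in these low levels was not tested.

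With INT-787, 16 of the 29 genes (55.2%) rose and none fell, where 10.2% of all 12580 genes rose and 9.48% fell. With OCA, 5 of 29 (17.2%) rose and none fell, where 4.15% of all genes rose and 2.45% fell. Between the drugs, 12 of 29 (41.4%) were higher with INT-787 than with OCA and none was lower, where 2.19% of all genes were higher and 3.19% lower. Leaving out 1 mouse moved these counts between 15 and 17 for INT-787, 2 and 6 for OCA, and 7 and 15 between the drugs. The median log2 fold change of the 29 genes was 0.40 for INT-787 against vehicle, 0.01 for OCA against vehicle and 0.42 for INT-787 against OCA, where the medians over all genes were -0.001, 0.018 and -0.007. Values above 0 were found for 24, 15 and 25 of the 29 genes in these comparisons, against 49.8%, 53.8% and 48.6% of all genes. The first and the second comparison share the vehicle mice, so their values are given side by side and not as independent results. In the reported fit, *Fdft1*, *Msmo1* and *Soat2* were called in all 3 comparisons, *Insig1* and *Stard4* in both comparisons with vehicle but not between the drugs, and *Hmgcs1*, *Pmvk*, *Tm7sf2* and *Nsdhl* between the drugs but not against vehicle. With OCA, *Fdft1* and *Msmo1* lost their call in 12 and 7 of the 28 fits that leave out 1 mouse. The genes called in all 3 comparisons lie, in GENCODE M21 coordinates of GRCm38, at chr14:63145150-63179578 (*Fdft1*, ENSMUSG00000021273, minus strand), chr8:64718139-64733792 (*Msmo1*, ENSMUSG00000031604, minus strand) and chr15:102150526-102163469 (*Soat2*, ENSMUSG00000023045, plus strand). With upper-quartile scaling in place of TMM, 16 of the 29 genes rose and 2 fell with INT-787, and the split of all called genes moved from 1277 higher and 1192 lower to 960 and 1597 for INT-787, and from 522 and 308 to 408 and 372 for OCA.

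**Figure D1:**
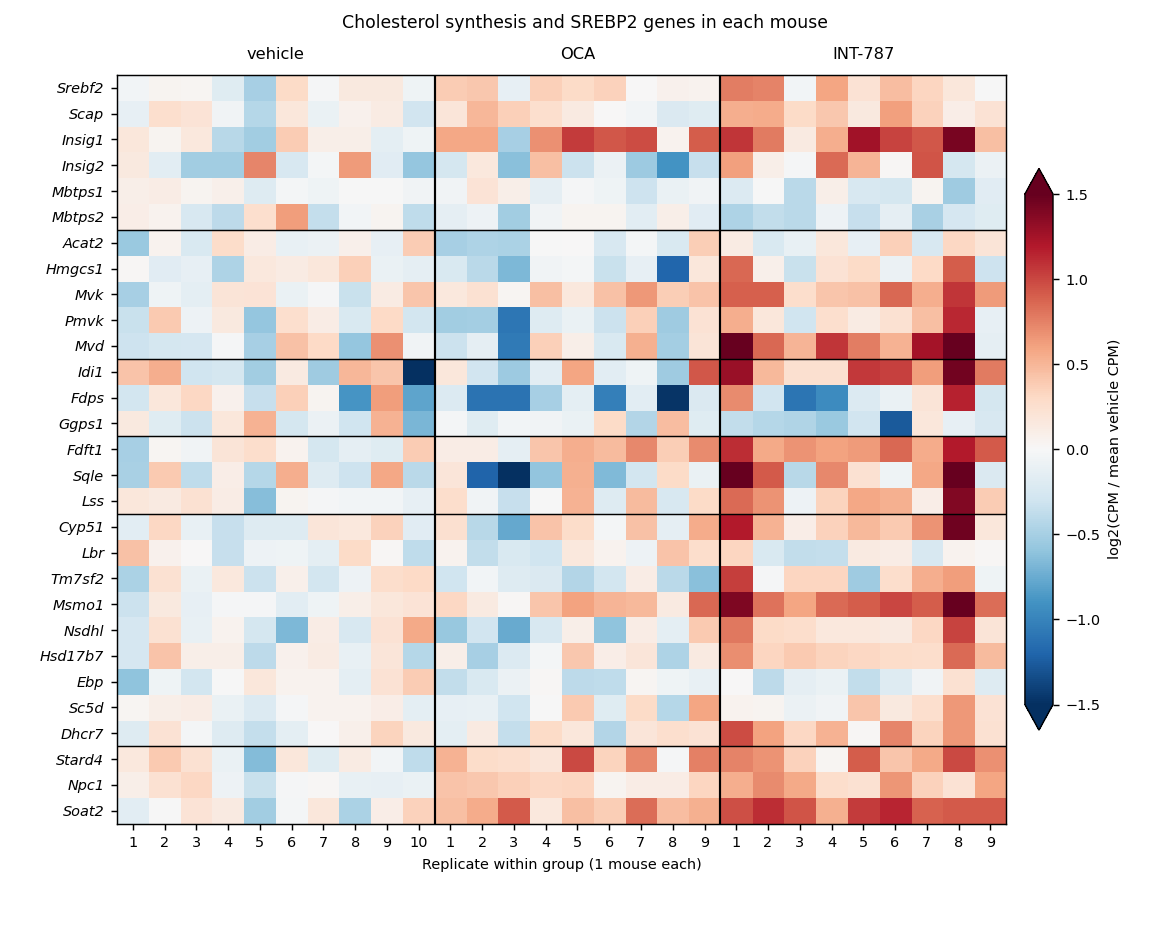
Level of each of the 29 genes (rows, in pathway order, with lines between the steps) in each of the 28 mice (columns, by group), as log2 of CPM over the mean of the vehicle mice, with red above and blue below it and the colour scale ending at 1.5 on either side. The INT-787 columns are red over most of the pathway, most deeply in replicates 1 and 8, while the OCA columns are red mainly at *Insig1*, *Mvk*, *Fdft1*, *Msmo1*, *Stard4*, *Npc1* and *Soat2*.

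Among the 6 genes of SREBP2 and its processing, *Srebf2*, *Scap* and *Insig1* rose with INT-787, and *Insig1* rose with OCA. None of the 6 was called between the drugs in the reported fit. *Srebf2* lay between 37.2 and 64.4 CPM under vehicle (median 52.8), between 48.4 and 69.4 under OCA (median 63.9) and between 51.2 and 89.6 under INT-787 (median 65.7). The groups overlapped, with 5 of 9 INT-787 mice and 4 of 9 OCA mice above every vehicle mouse. This gave a log2 fold change of 0.40 with INT-787 (SE 0.11, adjusted p = 0.00844) and 0.22 with OCA (SE 0.11, adjusted p = 0.278). Between the drugs it was 0.18 (95% interval -0.04 to 0.40, adjusted p = 0.396). *Scap*, the sterol-sensing escort, had a median of 80.2 CPM in vehicle mice (range 59.5 to 95.1), 87.8 CPM in OCA mice (68.7 to 113) and 102 CPM in INT-787 mice (85.4 to 122). Its fitted change (log2) was 0.37 with INT-787 (SE 0.10, adjusted p = 0.00783), 0.13 with OCA (adjusted p = 0.537) and 0.24 between the drugs (95% interval 0.03 to 0.45, adjusted p = 0.178).

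*Insig1*, whose protein holds SCAP and SREBP2 back and whose gene SREBP2 itself switches on, moved most in this step against vehicle, with either drug. It spanned 57.7 to 108 CPM in the vehicle group (median 86.7), 58.6 to 172 CPM in the OCA group (median 134) and 91.3 to 223 CPM in the INT-787 group (median 158). Above every vehicle mouse lay 7 of 9 OCA mice and 8 of 9 INT-787 mice. The log2 fold change was 0.66 with OCA (SE 0.17, adjusted p = 0.00998) and 0.91 with INT-787 (SE 0.17, adjusted p = 0.00015). Between the drugs it differed by 0.24 (95% interval -0.10 to 0.59, adjusted p = 0.476), so the interval holds both no difference and a higher level with INT-787.

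*Insig2*, the INSIG form that is not switched on by SREBP2, was not called in the model of the 3 groups without covariates. It lay between 150.0 and 372 CPM under vehicle (median 200.3), between 121 and 305 under OCA (median 179) and between 187 and 430.4 under INT-787 (median 238). The groups overlapped widely, although all 9 INT-787 mice lay above the OCA median. In the fit the log2 fold change was 0.35 with INT-787 (95% interval -0.03 to 0.73, adjusted p = 0.195) and -0.23 with OCA (95% interval -0.61 to 0.16, adjusted p = 0.592). Between the drugs it was 0.58 (95% interval 0.19 to 0.97, adjusted p = 0.0732). This difference passed the threshold in DESeq2 (0.59, adjusted p = 0.0412), with sets of neighbouring sample numbers as a factor in edgeR (0.56, adjusted p = 0.00342) and without OCA replicate 4 (0.69, adjusted p = 0.0291). With that factor *Insig2* was also called for INT-787 against vehicle (0.31, adjusted p = 0.0307). *Mbtps1* and *Mbtps2*, the site-1 and site-2 protease genes, had means of 67.8 and 12.5 CPM with vehicle and 60.2 and 10.2 CPM with INT-787, with log2 fold changes of -0.17 (adjusted p = 0.112) and -0.24 (adjusted p = 0.101). With upper-quartile normalization in place of TMM, both fell with INT-787, and 27.5% of the 75-base words of *Mbtps2* exons also occur in other genes.

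In the mevalonate segment (5 genes), *Mvk* and *Mvd* rose with INT-787, none was called with OCA, and *Hmgcs1*, *Pmvk* and *Mvd* were higher with INT-787 than with OCA. *Mvd*, the decarboxylase that makes isopentenyl diphosphate, had a median of 6.12 CPM in vehicle mice (range 4.55 to 10.9), 6.17 CPM in OCA mice (3.26 to 9.84) and 12.4 CPM in INT-787 mice (6.21 to 26.3). The OCA and vehicle ranges lay on top of each other, and 6 of 9 INT-787 mice were above every mouse of either. The fit put its log2 fold change at 1.13 with INT-787 (SE 0.22, adjusted p = 0.000411), the largest of the 29 genes, -0.02 with OCA (95% interval -0.49 to 0.45, adjusted p = 0.988) and 1.15 between the drugs (SE 0.23, adjusted p = 0.00195). *Mvk*, mevalonate kinase, spanned 8.37 to 15.8 CPM in the vehicle group (median 11.5), 12.1 to 18.5 CPM in the OCA group (median 15.3) and 14.2 to 24.9 CPM in the INT-787 group (median 18.5). It stood in the order vehicle, OCA, INT-787, with all 9 mice of each drug above the vehicle median. Fitted log2 fold changes were 0.69 with INT-787 (SE 0.12, adjusted p = 4.49e-05), 0.34 with OCA (SE 0.12, adjusted p = 0.0828) and 0.36 between the drugs (95% interval 0.12 to 0.59, adjusted p = 0.0636).

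*Hmgcs1*, the HMG-CoA synthase of the cytosol, lay between 153 and 271 CPM under vehicle (median 206), between 92.3 and 237 under OCA (median 179.7) and between 168 and 397 under INT-787 (median 246). *Pmvk*, phosphomevalonate kinase, had a median of 17.97 CPM in vehicle mice (range 11.8 to 23.3), 14.2 CPM in OCA mice (8.38 to 22.7) and 20.8 CPM in INT-787 mice (14.5 to 38.7). In both genes the vehicle median lay between those of the drugs, and neither drug was called against vehicle. The log2 fold changes of *Hmgcs1* were 0.28 with INT-787 (adjusted p = 0.222) and -0.27 with OCA (adjusted p = 0.382), and between the drugs it was 0.55 (SE 0.16, adjusted p = 0.0379). Those of *Pmvk* were 0.35 (adjusted p = 0.147) and -0.23 (adjusted p = 0.530), with 0.57 between the drugs (SE 0.17, adjusted p = 0.0414). *Acat2*, the cytosolic thiolase that opens the pathway, had a log2 fold change of 0.06 with INT-787 (95% interval -0.17 to 0.30, adjusted p = 0.760), and 33.9% of its 75-base words are shared with *Acat3*.

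In the isoprenoid diphosphate segment (3 genes), *Idi1*, which isomerises isopentenyl diphosphate, rose with INT-787 and was higher than with OCA. It spanned 0.825 to 3.69 CPM in the vehicle group (median 2.43), 1.73 to 4.81 CPM in the OCA group (median 2.25) and 2.96 to 6.84 CPM in the INT-787 group (median 4.33). All 9 INT-787 mice were above the median of either other group. Its log2 fold change was 0.85 with INT-787 (SE 0.23, adjusted p = 0.00876), 0.07 with OCA (adjusted p = 0.934) and 0.78 between the drugs (SE 0.23, adjusted p = 0.0421), and 16.7% of its 75-base words occur in 4 other genes. *Fdps* and *Ggps1*, which make farnesyl and geranylgeranyl diphosphate, were not called. *Fdps* averaged 4.30 ± 1.37 CPM in vehicle, 2.87 ± 0.953 in OCA and 4.51 ± 2.40 in INT-787 mice, with 23.5% of its 75-base words shared with other genes. *Ggps1*, on the branch that leads away from sterols to protein prenylation, had 6.62 ± 1.81, 6.59 ± 1.27 and 5.18 ± 1.26 CPM, with a log2 fold change of -0.36 with INT-787 (95% interval -0.68 to -0.03, adjusted p = 0.113).

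All 3 genes from squalene to lanosterol rose with INT-787. *Fdft1*, squalene synthase, which commits farnesyl diphosphate to sterols, lay between 39.5 and 72.3 CPM under vehicle (median 55.2), between 50.6 and 91.8 under OCA (median 74.1) and between 81.8 and 127 under INT-787 (median 89.2). Every INT-787 mouse was above every vehicle mouse, which held for 1.79% of all 12580 genes, and 5 of 9 OCA mice were. This gave a log2 fold change of 0.81 with INT-787 (SE 0.12, adjusted p = 5.23e-06), 0.40 with OCA (SE 0.12, adjusted p = 0.0360) and 0.42 between the drugs (SE 0.12, adjusted p = 0.0335).

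*Sqle*, squalene epoxidase, a rate-limiting enzyme of this part of the pathway, had the widest relative spread of the 29 genes under either drug. It had a median of 7.42 CPM in vehicle mice (range 6.30 to 13.2), 7.30 CPM in OCA mice (2.79 to 12.7) and 13.2 CPM in INT-787 mice (6.63 to 41.7). Its coefficient of variation was 31.1% in vehicle mice, 44.3% under OCA and 71.4% under INT-787, and 5 of 9 INT-787 mice were above every vehicle mouse. Its fitted change (log2) was 0.97 with INT-787 (SE 0.30, adjusted p = 0.0194), -0.20 with OCA (SE 0.30, adjusted p = 0.812) and 1.17 between the drugs (SE 0.30, adjusted p = 0.0178). Against vehicle the call was lost without INT-787 replicate 8 (log2 fold change 0.67, adjusted p = 0.0787) or INT-787 replicate 1 (adjusted p = 0.0525), and with limma-voom in place of edgeR (log2 fold change 0.76, adjusted p = 0.0580). *Lss*, lanosterol synthase, spanned 12.6 to 22.9 CPM in the vehicle group (median 19.8), 15.4 to 28.1 CPM in the OCA group (median 19.5) and 18.6 to 51.5 CPM in the INT-787 group (median 28.3). The fit put its log2 fold change at 0.59 with INT-787 (SE 0.15, adjusted p = 0.00464), 0.11 with OCA (adjusted p = 0.789) and 0.48 between the drugs (95% interval 0.18 to 0.78, adjusted p = 0.0528).

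**Figure D2:**
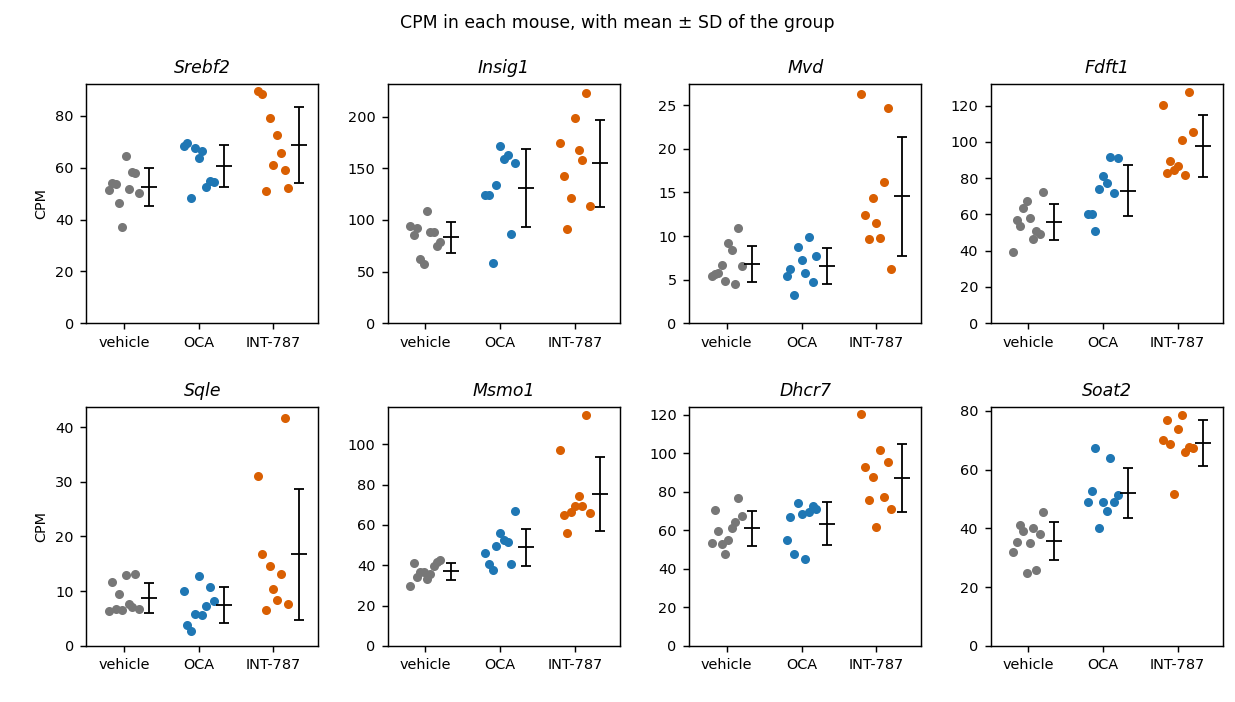
CPM of 8 of the 29 genes in each mouse (points; vehicle grey, OCA blue, INT-787 orange), with the mean and SD of each group beside the points and each axis starting at 0. In *Fdft1*, *Msmo1* and *Soat2* every INT-787 point is above every vehicle point, whereas in *Sqle* and *Mvd* a pair of INT-787 mice stands far above the others of the group.

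Of the 9 genes from lanosterol to cholesterol, *Cyp51*, *Msmo1*, *Hsd17b7* and *Dhcr7* rose with INT-787, *Msmo1* rose with OCA, and *Tm7sf2*, *Msmo1*, *Nsdhl*, *Hsd17b7* and *Dhcr7* were higher with INT-787 than with OCA. *Msmo1*, the methylsterol oxidase whose window above holds the element, lay between 29.5 and 42.6 CPM under vehicle (median 36.5), between 37.5 and 66.9 under OCA (median 49.4) and between 55.8 and 114 under INT-787 (median 69.4). Every INT-787 mouse was above every vehicle mouse, and 6 of 9 OCA mice were. The log2 fold change was 1.02 with INT-787 (SE 0.12, adjusted p = 7.91e-08), 0.40 with OCA (SE 0.12, adjusted p = 0.0316) and 0.62 between the drugs (SE 0.12, adjusted p = 0.00144). *Cyp51*, the lanosterol demethylase, had a median of 44.1 CPM in vehicle mice (range 38.3 to 61.6), 57.5 CPM in OCA mice (28.6 to 71.3) and 67.8 CPM in INT-787 mice (52.0 to 134). The OCA range was wider than the vehicle range on both sides. Its log2 fold change was 0.66 with INT-787 (SE 0.17, adjusted p = 0.00499), 0.11 with OCA (adjusted p = 0.803) and 0.54 between the drugs (95% interval 0.20 to 0.89, adjusted p = 0.0544).

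*Hsd17b7*, the keto-reductase of the demethylation steps, spanned 28.2 to 50.9 CPM in the vehicle group (median 39.9), 26.9 to 50.3 CPM in the OCA group (median 40.2) and 45.3 to 68.1 CPM in the INT-787 group (median 47.7). *Dhcr7*, which performs the last step of the Kandutsch-Russell branch, lay between 47.6 and 76.9 CPM under vehicle (median 60.4), between 45.0 and 74.2 under OCA (median 68.4) and between 61.7 and 120.3 under INT-787 (median 87.7). In both genes the OCA and vehicle ranges nearly coincided and all 9 INT-787 mice lay above the vehicle median. The log2 fold change of *Hsd17b7* was 0.45 with INT-787 (SE 0.12, adjusted p = 0.00597) and 0.45 between the drugs (adjusted p = 0.0193). That of *Dhcr7* was 0.51 (SE 0.12, adjusted p = 0.00168) and 0.46 between the drugs (adjusted p = 0.0170). With OCA the 95% interval was -0.24 to 0.24 for *Hsd17b7* and -0.19 to 0.29 for *Dhcr7*.

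*Tm7sf2*, one of the sterol C14 reductases, had a median of 32.3 CPM in vehicle mice (range 23.2 to 39.6), 26.8 CPM in OCA mice (20.9 to 34.9) and 40.3 CPM in INT-787 mice (22.4 to 66.4). *Nsdhl*, the C4 decarboxylase, spanned 19.3 to 45.6 CPM in the vehicle group (median 30.3), 18.3 to 40.6 CPM in the OCA group (median 26.1) and 33.8 to 62.3 CPM in the INT-787 group (median 37.0). As with *Hmgcs1* and *Pmvk*, the vehicle medians lay between those of the drugs. The log2 fold change of *Tm7sf2* was 0.34 with INT-787 (adjusted p = 0.0843), -0.25 with OCA (adjusted p = 0.378) and 0.59 between the drugs (SE 0.14, adjusted p = 0.0123). For *Nsdhl* these values were 0.38 (adjusted p = 0.0682), -0.20 (adjusted p = 0.524) and 0.58 (SE 0.15, adjusted p = 0.0187). In edgeR, *Nsdhl* was called for INT-787 against vehicle with the replicate number as a block (0.47, adjusted p = 0.0194). It was also called with sets of neighbouring sample numbers as a factor (0.40, adjusted p = 0.0228). The genes *Lbr*, *Ebp* and *Sc5d* were not called in any comparison. *Lbr*, a C14 reductase that is also an inner nuclear membrane protein, averaged 8.68 ± 1.57 CPM (SD) in vehicle, 8.80 ± 1.64 in OCA and 8.42 ± 1.42 in INT-787 mice, with a 95% interval of -0.30 to 0.19 for INT-787. *Ebp* and *Sc5d*, which move and add a double bond of the sterol ring, had intervals of -0.33 to 0.08 and -0.03 to 0.43 for INT-787 against vehicle.

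The 3 genes of sterol movement and storage all rose with INT-787, and *Stard4* and *Soat2* rose with OCA. *Soat2*, the hepatocyte enzyme that esterifies cholesterol, lay between 24.9 and 45.4 CPM under vehicle (median 36.8), between 39.9 and 67.3 under OCA (median 49.0) and between 51.8 and 78.6 under INT-787 (median 68.7). All 9 INT-787 mice and 8 of 9 OCA mice were above every vehicle mouse, and 7 of 9 INT-787 mice were above every OCA mouse. In the fit the log2 fold change was 0.95 with INT-787 (SE 0.11, adjusted p = 5.72e-08), 0.54 with OCA (SE 0.11, adjusted p = 0.000848) and 0.41 between the drugs (SE 0.11, adjusted p = 0.0203). *Stard4*, a carrier of cholesterol between membranes, had a median of 37.0 CPM in vehicle mice (range 22.98 to 47.1), 45.4 CPM in OCA mice (35.6 to 71.3) and 57.3 CPM in INT-787 mice (36.6 to 71.5). The ranges of the drugs nearly coincided. Its fitted change (log2) was 0.63 with INT-787 (SE 0.13, adjusted p = 0.000947), 0.48 with OCA (SE 0.13, adjusted p = 0.0228) and 0.14 between the drugs (95% interval -0.13 to 0.42, adjusted p = 0.642). *Npc1*, which exports cholesterol from the lysosome, spanned 129.99 to 204 CPM in the vehicle group (median 159), 169.5 to 221 CPM in the OCA group (median 206) and 190.4 to 269 CPM in the INT-787 group (median 240.3). Each drug had 6 of 9 mice above every vehicle mouse. Fitted log2 fold changes were 0.47 with INT-787 (SE 0.09, adjusted p = 0.000168) and 0.27 with OCA (SE 0.09, adjusted p = 0.0502, and 0.0426 in DESeq2 and 0.0414 in limma-voom), and between the drugs it was 0.20 (95% interval 0.01 to 0.38, adjusted p = 0.216).

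**Figure D3:**
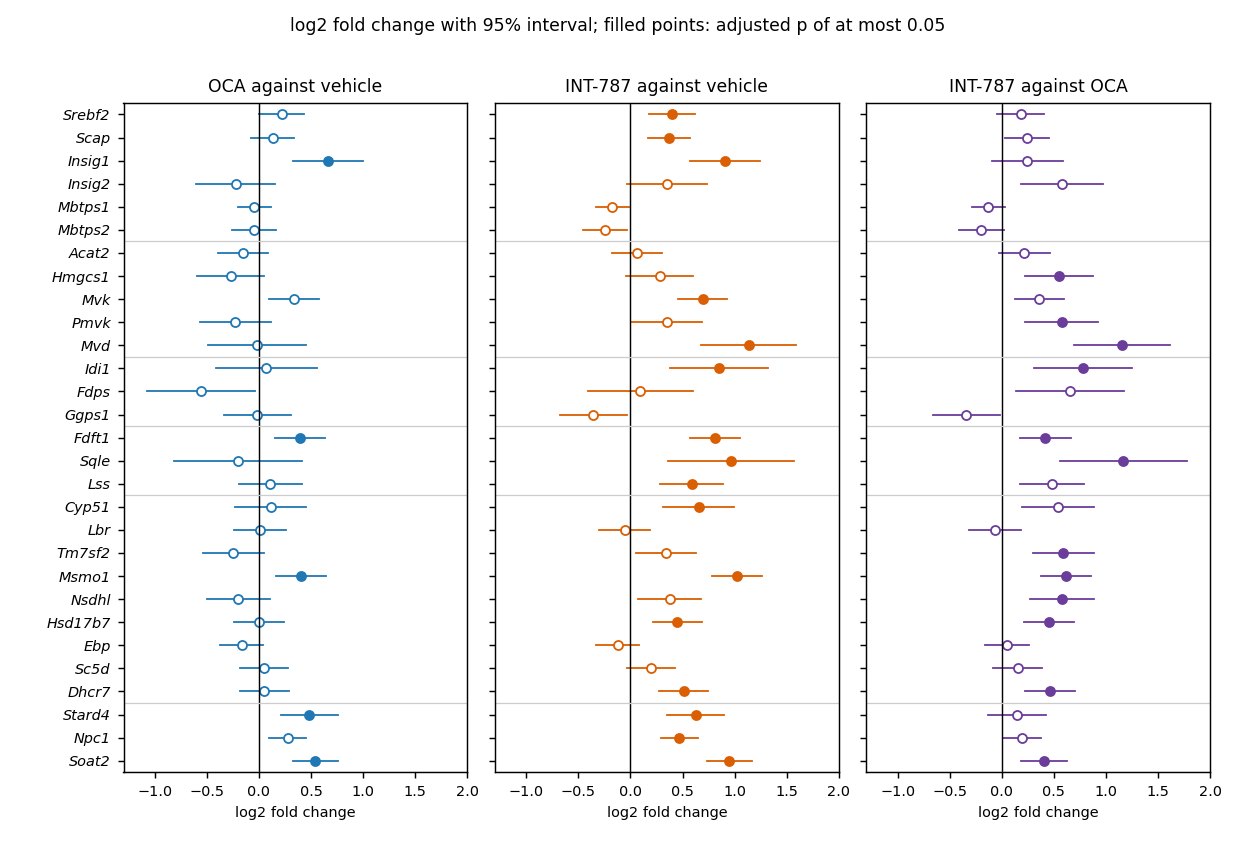
log2 fold change (points) with 95% interval (bars) of the 29 genes in pathway order for OCA against vehicle, INT-787 against vehicle and INT-787 against OCA, with filled points where the adjusted p was at most 0.05. With INT-787 there are 16 filled points, at least 1 in each step from *Srebf2* to *Soat2*, while with OCA there are 5, at *Insig1*, *Fdft1*, *Msmo1*, *Stard4* and *Soat2*.

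OCA and INT-787 were given at the same dose for the same time and form the 1 pair of compounds compared. No gene of the 29 had every INT-787 mouse above every OCA mouse, which held for 0.199% of all genes, and no gene had every OCA mouse above every vehicle mouse, which held for 0.604%. The 12 genes that were higher with INT-787 spanned log2 differences from 0.41 (*Soat2*) to 1.17 (*Sqle*). DESeq2 called these 12 and also *Insig2*, *Cyp51* (adjusted p = 0.0288), *Lss* (adjusted p = 0.0307) and *Mvk* (adjusted p = 0.0398), 16 of the 29 in all. Of the 5 genes called with OCA, *Fdft1*, *Msmo1* and *Soat2* were higher still with INT-787, whereas for *Insig1* and *Stard4* the interval of the difference included 0.

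Several of these calls lay near the threshold and were lost when 1 mouse was left out. Without INT-787 replicate 8, 7 of the 12 genes remained called between the drugs (*Mvd*, *Tm7sf2*, *Msmo1*, *Nsdhl*, *Hsd17b7*, *Dhcr7* and *Soat2*), which were called whichever of the 28 mice was left out, and *Hmgcs1*, *Pmvk*, *Idi1*, *Fdft1* and *Sqle* were lost. In the other direction, *Lss* was newly called between the drugs in 8 of the 28 fits that leave out 1 mouse, *Cyp51* in 7, *Mvk* in 3 and *Insig2* in 1. Against vehicle, *Tm7sf2* was newly called with INT-787 without INT-787 replicate 5 (log2 fold change 0.42, adjusted p = 0.0207) and *Nsdhl* without vehicle replicate 10 (0.45, adjusted p = 0.0245). Between the drugs, *Sqle* was lost only without INT-787 replicate 8 (log2 difference 0.87, adjusted p = 0.0571). *Fdft1* was lost with adjusted p from 0.054 to 0.075 without OCA replicates 1, 2, 3 or 8 or INT-787 replicates 1, 6 or 8, and *Hmgcs1* with adjusted p from 0.053 to 0.095 without OCA replicates 1, 2, 3, 6 or 8 or INT-787 replicates 1, 5, 7 or 8. *Pmvk* was lost with adjusted p from 0.051 to 0.11 without OCA replicates 1, 2, 3, 4, 6 or 8 or INT-787 replicates 1, 4, 6, 7 or 8, and *Idi1* with adjusted p from 0.052 to 0.095 without OCA replicates 1, 2, 3, 4, 6, 7 or 8 or INT-787 replicates 1, 5, 6, 7, 8 or 9. In the fits that lost them, the log2 differences were 0.36 to 0.41 for *Fdft1* (0.42 with all mice), 0.45 to 0.56 for *Hmgcs1* (0.55), 0.43 to 0.59 for *Pmvk* (0.57) and 0.69 to 0.81 for *Idi1* (0.78). With OCA against vehicle, *Insig1* and *Soat2* were called whichever mouse was left out, *Npc1* was newly called in 8 of the 28 fits (adjusted p from 0.023 to 0.049) and *Mvk* without vehicle replicate 10 (adjusted p = 0.0378). *Stard4* was lost without OCA replicate 5 (log2 fold change 0.41, adjusted p = 0.063) or OCA replicate 9 (adjusted p = 0.055). *Msmo1* was lost with adjusted p from 0.051 to 0.086 without vehicle replicates 1, 3 or 7 or OCA replicates 5, 6, 7 or 9, and *Fdft1* with adjusted p from 0.050 to 0.084 without vehicle replicates 1, 2, 3, 7, 8 or 9, OCA replicates 4, 5, 6, 7 or 9 or INT-787 replicate 9. There the log2 fold changes were 0.33 to 0.39 for *Msmo1* (0.40 with all mice) and 0.35 to 0.40 for *Fdft1* (0.40).

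**Figure D4:**
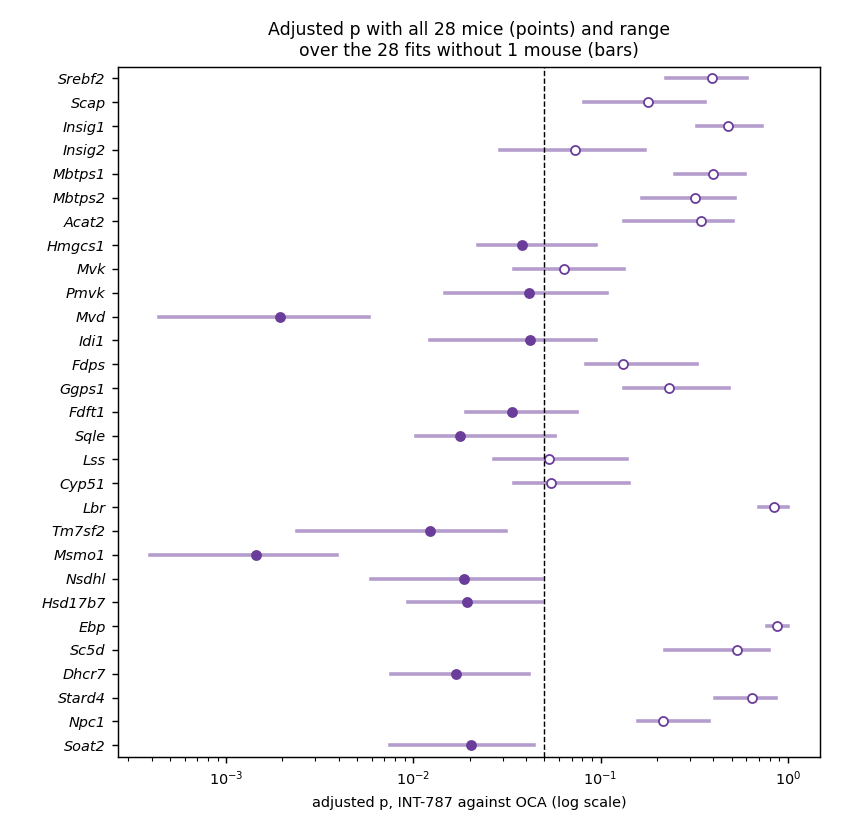
Adjusted p of INT-787 against OCA for the 29 genes in pathway order, on a log axis, with all 28 mice (points, filled where at most 0.05) and as the range over the 28 fits that each leave out 1 mouse (bars); the dashed line is at 0.05. The bars of *Mvd*, *Tm7sf2*, *Msmo1*, *Nsdhl*, *Hsd17b7*, *Dhcr7* and *Soat2* stay at or below the line, and those of *Hmgcs1*, *Pmvk*, *Idi1*, *Fdft1* and *Sqle* cross it. The bars of *Insig2*, *Mvk*, *Lss* and *Cyp51*, whose points are not filled, also cross it.

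The program as a whole differed between mice of one group. For each mouse, the median over the 29 genes of log2 CPM relative to the vehicle mean ran from -0.32 to 0.12 with vehicle, from -0.30 to 0.22 with OCA and from 0.10 to 0.91 with INT-787. The lowest INT-787 mouse (replicate 3, 0.10) thus lay within the range of the vehicle and OCA mice, and the highest were replicates 1 (0.77) and 8 (0.91). INT-787 replicate 8 held the highest value of its group for 16 of the 29 genes and replicate 3 the lowest for 12, while OCA replicate 3 held the lowest of its group for 13 and vehicle replicate 5 for 11. INT-787 replicate 8 was not high throughout: it had the lowest INT-787 values of *Scap* (85.4 CPM), *Insig2* (187), *Mbtps1* (46.8) and *Npc1* (190.4).

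Genes around the pathway were counted from lists chosen by function, to be read against the shares of all genes called, which were 10.2% higher and 9.48% lower with INT-787, 4.15% and 2.45% with OCA, and 2.19% and 3.19% between the drugs. Of 10 genes of the machinery that degrades sterol-regulated proteins, 1 rose and 1 fell with INT-787, close to the shares over all genes: *Erlin1*, a scaffold of that machinery, rose by 0.26 (log2, SE 0.08, adjusted p = 0.0168) and *Rnf145*, a ubiquitin ligase, fell by 0.63 (SE 0.11, adjusted p = 0.000131). With OCA *Rnf145* fell by 0.37 (SE 0.11, adjusted p = 0.0439), with means of 52.4 ± 9.25 CPM in vehicle, 40.4 ± 3.98 in OCA and 33.8 ± 7.10 in INT-787 mice. None of 4 electron donors of sterol oxidation and none of 11 genes on branches of the isoprenoid pathway (dolichol, ubiquinone and prenylation) was called in any comparison. Of 5 genes that supply cytosolic acetyl-CoA, 2 rose with INT-787 and 0 with OCA. *Acss2*, which makes acetyl-CoA from acetate, averaged 114 ± 16.3 CPM (SD) in vehicle, 92.7 ± 18.8 in OCA and 171 ± 34.3 in INT-787 mice, with log2 changes of 0.58 (SE 0.11, adjusted p = 0.000429) with INT-787 and 0.88 between the drugs (SE 0.12, adjusted p = 1.16e-05). *Acly*, ATP citrate lyase, rose by 0.80 with INT-787 (SE 0.20, adjusted p = 0.00439), and its difference between the drugs was 0.38 (SE 0.20, adjusted p = 0.326).

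Of 7 tested genes of a list of 8 further SREBP2-responsive genes, 3 rose with INT-787 (*Cyp2d22*, *Rdh11* and *Aldoc*, by 0.36, 0.46 and 0.43 on the log2 scale), 0 changed with OCA, and 3 were higher with INT-787 than with OCA. Of these last 3, only *Rdh11* was among those that rose, and the others were not called against vehicle with either drug. Of 11 genes of intracellular sterol traffic, 4 rose and 2 fell with INT-787, 2 rose and 1 fell with OCA, and 1 was higher and 2 lower between the drugs. *Gramd1c*, a carrier of plasma membrane cholesterol, averaged 15.5 ± 2.88 CPM (SD) in vehicle, 21.5 ± 2.79 in OCA and 29.2 ± 4.46 in INT-787 mice (log2 fold change 0.89, SE 0.10, adjusted p = 9.63e-08, and 0.44 between the drugs, SE 0.10, adjusted p = 0.00893). *Stard5*, a sterol and bile acid carrier, rose with INT-787 (0.55, SE 0.12, adjusted p = 0.000971) and with OCA (0.39, SE 0.12, adjusted p = 0.0368). *Soat1*, the esterifying enzyme of macrophages and many other cells, went the other way from *Soat2*: it averaged 15.8 ± 2.65 CPM (SD) in vehicle, 17.8 ± 5.30 in OCA and 11.3 ± 2.15 in INT-787 mice, and fell by 0.50 on the log2 scale with INT-787 (SE 0.14, adjusted p = 0.0129). Of 9 target genes of LXR, the receptor that senses oxysterols, 2 rose and 1 fell with INT-787, 3 rose with OCA, and 1 was lower with INT-787 than with OCA. *Abcg5* and *Abcg8*, which together secrete cholesterol into bile, rose with INT-787 (0.82 and 0.56, adjusted p = 3.61e-05 and 0.000713) and with OCA (0.74 and 0.62, adjusted p = 0.00037 and 0.000521), and *Pltp*, the phospholipid transfer protein, fell by 0.48 with INT-787 (adjusted p = 0.0131).

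In whole liver, fewer cells of a type and less RNA per cell cannot be told apart. Of 6 hepatocyte markers, 3 rose with INT-787 and the same number with OCA (*Alb*, *Tat* and *Cps1* in both), where 10.2% and 4.15% of all genes rose, and none differed between the drugs, and their summed level ran from 73131 to 139487 CPM with vehicle, from 116863 to 208274 with OCA and from 106842 to 177044 with INT-787. With INT-787, markers fell in the macrophage (2 of 6), stellate cell (3 of 6), endothelial (2 of 6), cholangiocyte (1 of 6) and lymphocyte (2 of 6) lists, none rose in them, and with OCA none of these 30 markers was called, where 9.48% of all genes fell with INT-787 and 2.45% with OCA. Between the drugs, *Cd68* (log2 difference -0.61, adjusted p = 0.0127), *Col1a2* (-1.34, adjusted p = 0.000449) and *Spp1* (-1.12, adjusted p = 0.000134) of the 30 were lower with INT-787, where 3.19% of all genes were. The summed macrophage markers ran from 564 to 781 CPM with vehicle, from 424 to 977 with OCA and from 364 to 749.6 with INT-787, and the summed stellate markers from 731 to 1094, from 660.5 to 1478 and from 352 to 739 CPM. The summed cholangiocyte markers ran from 488 to 805 CPM in vehicle mice (median 703), from 447 to 1631 under OCA (median 855) and from 343 to 545 under INT-787 (median 393). Of these 6 markers, only *Spp1* was called in any comparison, and how far it alone sets the sum was not tested. No marker was at 0 in all mice. The part of these shifts in the changes of the 29 genes was not tested.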

How the data were processed

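Poly(A) RNA of 28 livers was sequenced from stranded libraries. The authors aligned the reads to GRCm38 (Ensembl release 89) with STAR 2.5.2a and deposited raw counts per gene, 1 column per mouse, without normalization; the counting program, its use of strand and any filter are not given in the sources used here. Nothing says that the mice of a group were littermates or shared a cage, and groups came from the labels. Here the counts were filtered with filterByExpr (12580 genes of 21935), scaled with TMM and tested with the quasi-likelihood functions of edgeR 4.0.16 (R 4.3.3) in 1 model of the 3 groups without covariates, with Benjamini-Hochberg adjustment over all genes tested. Intervals come from the moderated t distribution of that fit. CPM are given as mean ± SD or as ranges over mice. The low depth of vehicle replicate 6 limits its values for genes near 5 CPM to a few counts, and counting intervals were not added to the spread between mice.

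The 29 genes and the lists were chosen with earlier results of these data known. A gene of the 29 is given in full where it was called in any comparison or is *Srebf2*, *Insig1*, *Insig2* or *Sqle*, and of each list at most 3 called genes are named, those with the smallest p for INT-787 against vehicle. Markers of 6 cell types and the strand and shared-sequence checks used GENCODE M21 (GRCm38), where 21858 genes matched a symbol. The tests were tried on simulated counts, and alternatives used DESeq2 1.42.0, limma 3.58.1, other scalings, filters and covariates, and each mouse left out in turn. No mouse was excluded, no 2 libraries agreed within sampling noise, and 0 columns were outside the series.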

Additional observations from a re-analysis of the deposited data

Results flagged for a closer look

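For each of the 29 genes, the highest and the lowest mouse of every group were compared with the rest of the group by Dixon's ratio. Of 87 groups, 6 held a mouse that stood apart, and chance alone marks about 1 in 20. *Lss* was marked on both sides of its comparison, at 12.6 CPM in vehicle replicate 5 (next value 18.1) and at 51.5 CPM in INT-787 replicate 8 (next value 35.3). INT-787 replicate 8 also stood apart in *Pmvk*, at 38.7 CPM (next value 25.8). *Soat2* was low in INT-787 replicate 4, at 51.8 CPM (next value 66.1). In the OCA group, *Mbtps2* was low in replicate 3 at 8.72 CPM (next value 11.1) and *Acat2* was high in replicate 9 at 63.2 CPM (next value 49.0).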

How the results depend on the processing

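Under 37 alternatives, 8, 22 and 13 of the 29 genes were called in none for INT-787, OCA and between the drugs, and 5, 2 and 4 that were not called in the reported fit passed in at least 1. Over these and the called genes, which make 44 combinations of gene and comparison chosen by their calls, none reversed; 1495 values kept their side of the threshold, 79 fell short of it and 52 newly passed it. For INT-787 against vehicle, 15 of the 16 calls held under every alternative that tested the gene, the exception being *Sqle*. For OCA against vehicle, *Insig1* and *Soat2* held under all of them. Between the drugs, *Mvd*, *Tm7sf2*, *Msmo1*, *Nsdhl*, *Hsd17b7*, *Dhcr7* and *Soat2* did. Leaving out 1 mouse moved the called members of the 29 between 15 and 17 for INT-787, between 2 (without OCA replicate 5 or 9; 3 without vehicle replicate 1 or 7) and 6 for OCA, and between 7 (without INT-787 replicate 8) and 15 between the drugs. All called genes ranged from 2116 to 2733, from 666 to 936 and from 443 (without OCA replicate 8) to 888. Upper-quartile scaling left 3 of the 29 with OCA (*Insig1*, *Stard4* and *Soat2*) and added *Mbtps1* and *Mbtps2* as lower with INT-787, and between the drugs it lost *Fdft1*, *Idi1* and *Pmvk*. Fitting only the 2 groups compared called 16, 4 and 10 of the 29, and lost *Fdft1* for OCA (adjusted p = 0.0694). Between the drugs that fit lost *Hmgcs1* (adjusted p = 0.0758) and *Pmvk* (adjusted p = 0.0648). Without a filter on low counts, *Idi1* was lost between the drugs (adjusted p = 0.0511). The filter of at least 10 counts in every mouse, which tests 25 of the 29 and drops *Idi1*, called for INT-787 and between the drugs, added *Mbtps1* for INT-787 and *Npc1* for OCA. DESeq2 called 16, 6 and 16 of the 29, adding *Npc1* for OCA and *Cyp51*, *Insig2*, *Lss* and *Mvk* between the drugs, and limma-voom 15, 6 and 12, without *Sqle* for INT-787 and with *Npc1* for OCA. The cause was not tested. Depth limits *Idi1*, *Fdps*, *Ggps1* and *Lbr* most, with 3 to 9 counts in vehicle replicate 6.

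The replicate number was also entered as a block, although nothing in the labels says that equal numbers share a cage or day and the deviations of equal numbers correlated between -0.24 and 0.42 over the 3 comparisons, with 2, 1 and 5 of 9 mice closest to their own number. The median correlations were -0.03, -0.05 and 0.17, so equal numbers went together most between the drugs. With the block, 2417, 868 and 677 genes and 17, 5 and 11 of the 29 were called for INT-787, OCA and between the drugs. The block lost *Sqle* (log2 fold change 0.74, adjusted p = 0.0735) and added *Nsdhl* and, as lower, *Mbtps2* for INT-787, replaced *Stard4* (0.44, adjusted p = 0.0699) by *Npc1* for OCA, and lost *Hmgcs1* (0.51, adjusted p = 0.0738) between the drugs. With sets of neighbouring sample numbers as a factor instead, 18, 4 and 16 of the 29 were called. This added *Insig2* and *Nsdhl* for INT-787, replaced *Fdft1* and *Msmo1* by *Npc1* for OCA, and added *Cyp51*, *Insig2*, *Lss* and *Mvk* between the drugs. *Fdft1* and *Msmo1* also lost their OCA call without OCA replicate 9. That mouse has sample number 2309, where the others run from 2040 to 2150. Mice of both OCA and vehicle were present in 8 of the sets. For the sets, 3 of 9, 1 of 8 and 4 of 8 mice were closest to their own set, with median correlations of 0.08, 0.09 and 0.19.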
